A study of Mus musculus with 7 samples.

Results

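The 9 genes described here, Mbp, Mobp, Mog, Mag, Cnp, Mal, Cldn11, Opalin and Ermn, encode structural and associated proteins of central nervous system myelin. They were chosen by symbol from a count table of 55367 genes, and all 9 were present, passed the filter on low counts and were tested. RNA-seq libraries came from C57BL/6J mice labelled P90, 4 labelled CRS and 3 labelled noCRS, and the design text names CRS against noCRS as its only contrast. Per the labels, RNA came from mPFC-LHB projection neurons, that is, medial prefrontal cortex neurons with axons to the lateral habenula. No genotype, transgene or agent is labelled. How the neurons were isolated, what CRS consisted of and whether each library was a separate animal are not given in the sources used here. Each p-value therefore reflects spread among libraries that may be technical replicates.

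Myelin is the compacted membrane that oligodendrocytes wrap around axons. Its proteins hold the membrane layers together, seal the sheath and attach it to the axon, and their transcripts are hallmarks of mature oligodendrocytes, not of neurons. Oligodendrocytes arise from precursors through a newly formed stage, and the transcription factors SOX10 and MYRF are known to drive myelin genes in this lineage.

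The 9 myelin genes were abundant in every library, and none passed the test of CRS against noCRS. In edgeR's quasi-likelihood test, adjusted by Benjamini-Hochberg over 17833 genes, 0 of 9 passed the threshold of 0.05 (adjusted p from 0.568 to 0.918), against a background of 2.3% of all tested genes (2.07% higher and 0.23% lower in CRS). None had an unadjusted p below 0.05, and DESeq2 and limma-voom also called 0. Fold changes of CRS over noCRS ran from 0.772 for Mbp to 1.36 for Ermn, with 5 above and 4 below 1. The median log2 fold change was 0.18, beside -0.016 over all tested genes. Among genes with a mean of at least 100 CPM, as all 9 had, medians by exon length class were 0.17 to 0.27. The median of the 9 thus lay within the range of abundant genes. For all 9, the CRS and noCRS libraries overlapped, whereas 10.1% of tested genes were higher in CRS and 6.74% lower in CRS without overlap.

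Together the 9 genes took 1.11%, 0.823%, 1.39% and 0.658% of all counts in CRS replicates 1 to 4, against 1.01%, 1.11% and 1.30% in noCRS replicates 1 to 3. The highest and the lowest share were both in CRS libraries, replicates 3 and 4, and the noCRS libraries lay between them. Exact 95% binomial intervals were 1.38% to 1.39% for CRS replicate 3 and 0.655% to 0.660% for CRS replicate 4, and they cover counting error only. The mean share was 0.994% ± 0.321 in CRS (SD, n = 4) and 1.14% ± 0.144 in noCRS (SD, n = 3), a log2 ratio of -0.20. The difference was smaller than the SD of the CRS libraries. The ratio was -0.40 without CRS replicate 3 and -0.045 without CRS replicate 4, the libraries that moved it farthest to each side. In bulk samples, fewer cells of a type and less RNA per cell cannot be told apart.

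Library totals ran from 28677703 to 39965667 counts, and 16938 to 23399 genes had at least 1 count. The label was checked against marker lists. Neuronal genes listed as excitatory markers summed to 2975 to 4417 CPM in CRS and 152 to 283 CPM in noCRS, and 6 of 12 rose, against 2.07% of all tested genes. In 11 of 12 every CRS library was above every noCRS library, against 10.1% of all tested genes. Snap25, which is not limited to excitatory neurons, averaged 2747 of the list's 3826 CPM in CRS and 158 of 214 CPM in noCRS. The sum therefore mostly measures neurons in general. In every library the 9 myelin genes summed to more than these neuronal markers, at 6811 to 14820 CPM in CRS and 9765 to 12170 CPM in noCRS. The relative excess was larger in every noCRS library than in any CRS library. It was least in noCRS replicate 1, at 9765 against 283 CPM, and most in CRS replicate 3, at 14820 against 2975 CPM. These levels, most of all in noCRS, do not match a label of neurons alone. Sums over unlike gene lists do not measure the share of cells. Levels are CPM, counts scaled to library size after TMM normalisation. Pmp2, a marker of peripheral myelin, had 0 counts in all 7 libraries, where a floor of 3 counts corresponds to 0.0751 to 0.105 CPM per library. Pmp2 is from a list of 10 genes and was not named by the rule given below. Pmp22 of the same list averaged 123 CPM in CRS and 137 CPM in noCRS, so Pmp2 does not stand for the list.

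Because SOX10 and MYRF act on myelin genes, the bases upstream of the RefSeq start sites (GRCm38.p6) were read for 8 of the genes. Mbp was left out, so the counts of matches do not cover it. The 8 genes read had 10 start windows of 250 bases. The letters ACAAAG, a SOX core, and CTGGNAC, a MYRF core, were searched on both strands. ACAAAG was found in 5 of the 10 windows (Cnp, Mag, Mobp and Opalin), against 16.5% of 32851 mouse windows of the same length. CTGGNAC was found in 4 of 10 (Cnp, Mag and Mog), against 16.1% of all windows. A pair of Mag windows overlap and hold the same matches, so the windows are not independent, and a match is not a binding site. The 4 stretches below are shown because Mobp carried the most SOX matches, Cnp and Mag carried both motifs, and Ermn, whose fold change was highest, carried neither. Capitals mark the matches on either strand, and each stretch reads 5′ to 3′ toward the gene and stops before its annotated exons.
Mobp, chr9:120149492-120149706, plus strand: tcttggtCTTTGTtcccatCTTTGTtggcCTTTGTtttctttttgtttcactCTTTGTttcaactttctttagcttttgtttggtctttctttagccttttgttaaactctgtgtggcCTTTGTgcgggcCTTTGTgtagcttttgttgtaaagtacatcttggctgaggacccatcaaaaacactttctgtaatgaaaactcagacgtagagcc
Cnp, chr11:100574689-100574903, plus strand: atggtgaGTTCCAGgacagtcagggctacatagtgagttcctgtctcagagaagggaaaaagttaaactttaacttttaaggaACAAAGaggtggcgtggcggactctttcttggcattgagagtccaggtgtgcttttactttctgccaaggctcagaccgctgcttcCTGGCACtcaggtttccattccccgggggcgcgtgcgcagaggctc
Mag, chr7:30914874-30915113, minus strand: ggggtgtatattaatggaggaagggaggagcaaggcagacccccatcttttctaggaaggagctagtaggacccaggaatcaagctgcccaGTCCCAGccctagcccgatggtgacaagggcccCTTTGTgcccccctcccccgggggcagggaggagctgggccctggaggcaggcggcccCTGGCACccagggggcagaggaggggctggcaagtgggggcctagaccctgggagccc
Ermn, chr2:58052865-58053114, minus strand: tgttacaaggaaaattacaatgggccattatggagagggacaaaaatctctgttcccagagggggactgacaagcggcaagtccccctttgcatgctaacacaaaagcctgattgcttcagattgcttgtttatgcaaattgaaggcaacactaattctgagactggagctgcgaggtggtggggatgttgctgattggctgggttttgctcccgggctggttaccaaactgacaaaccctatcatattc

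Distances are counted back from the RefSeq start site, the end of each 250-base window. For Mobp, Cnp and Mag that site lies past the end of the stretch shown and past the gene start used elsewhere here. The 6 SOX matches of Mobp lay 114 to 237 bases before its RefSeq start site, all as the reverse complement. The nearest MYRF match lay 74 bases before that site in Cnp, 76 in Mog and, for the Mag stretch shown, 61. The gene Sox10 itself measured 61.5, 31.9, 46.6 and 43.2 CPM in CRS replicates 1 to 4, against 127, 133 and 120 CPM in noCRS. Every CRS library was below every noCRS library, and Sox10 fell (log2 fold change -1.47 ± 0.24 SE, edgeR adjusted p = 0.0202). That call was lost without CRS replicate 3 or 4 or any single noCRS library (edgeR adjusted p up to 0.0918). The gene Myrf, named because its motif was searched, measured 19.1 ± 9.33 CPM in CRS (SD, n = 4) and 28.9 ± 8.26 CPM in noCRS (SD, n = 3), with overlap and an edgeR adjusted p of 0.755. No part of these factors in the levels of the myelin genes was tested.

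Among the proteins of compact myelin, Mbp (chromosome 18, 82475146 to 82585637, plus strand) encodes myelin basic protein, which binds the cytoplasmic faces of the membrane together. It measured 2119, 985, 1915 and 872 CPM in CRS replicates 1 to 4, against 1593, 2100 and 2027 CPM in noCRS replicates 1 to 3. CRS replicates 2 and 4 were lower than every other library, and CRS replicate 1 was the highest of the 7, so the groups overlapped. CRS over noCRS gave a log2 fold change of -0.37 ± 0.32 SE, with a 95% interval of -1.11 to 0.37 (edgeR adjusted p = 0.764).

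Mobp (chromosome 9, 120149707 to 120181484, plus strand) encodes a small basic protein that also lies on the cytoplasmic side of compact myelin. It measured 1553, 1313, 2434 and 1061 CPM in CRS replicates 1 to 4, against 1433, 1695 and 2106 CPM in noCRS. CRS replicate 3 was the highest library and CRS replicate 4 the lowest. The log2 fold change was -0.13 (95% interval -0.78 to 0.51, edgeR adjusted p = 0.918), the smallest of the 9 in size, and it was 0.026 without noCRS replicate 3.

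Mal (chromosome 2, 127633226 to 127656695, minus strand) encodes a raft-associated proteolipid of membrane trafficking in myelinating cells. Its levels were 1729, 2059, 2711 and 1265 CPM in CRS, against 1675, 1377 and 1873 CPM in noCRS. Of the CRS libraries 2 lay above all noCRS libraries, 1 lay below them and 1 lay within their range. Its log2 fold change was 0.24 (95% interval -0.34 to 0.82, edgeR adjusted p = 0.823).

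Cldn11 (chromosome 3, 31149920 to 31164324, plus strand) encodes the claudin of the tight junctions that seal the myelin layers. It measured 369, 315, 561 and 208 CPM in CRS, against 336, 303 and 322 CPM in noCRS. The coefficient of variation was 40.6% over the CRS libraries and 5.10% over the noCRS libraries, and the CRS libraries reached past the noCRS range on both sides. Cldn11 had a log2 fold change of 0.18 (95% interval -0.49 to 0.86, edgeR adjusted p = 0.896), and -0.13 without CRS replicate 3.

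**Figure D1:**
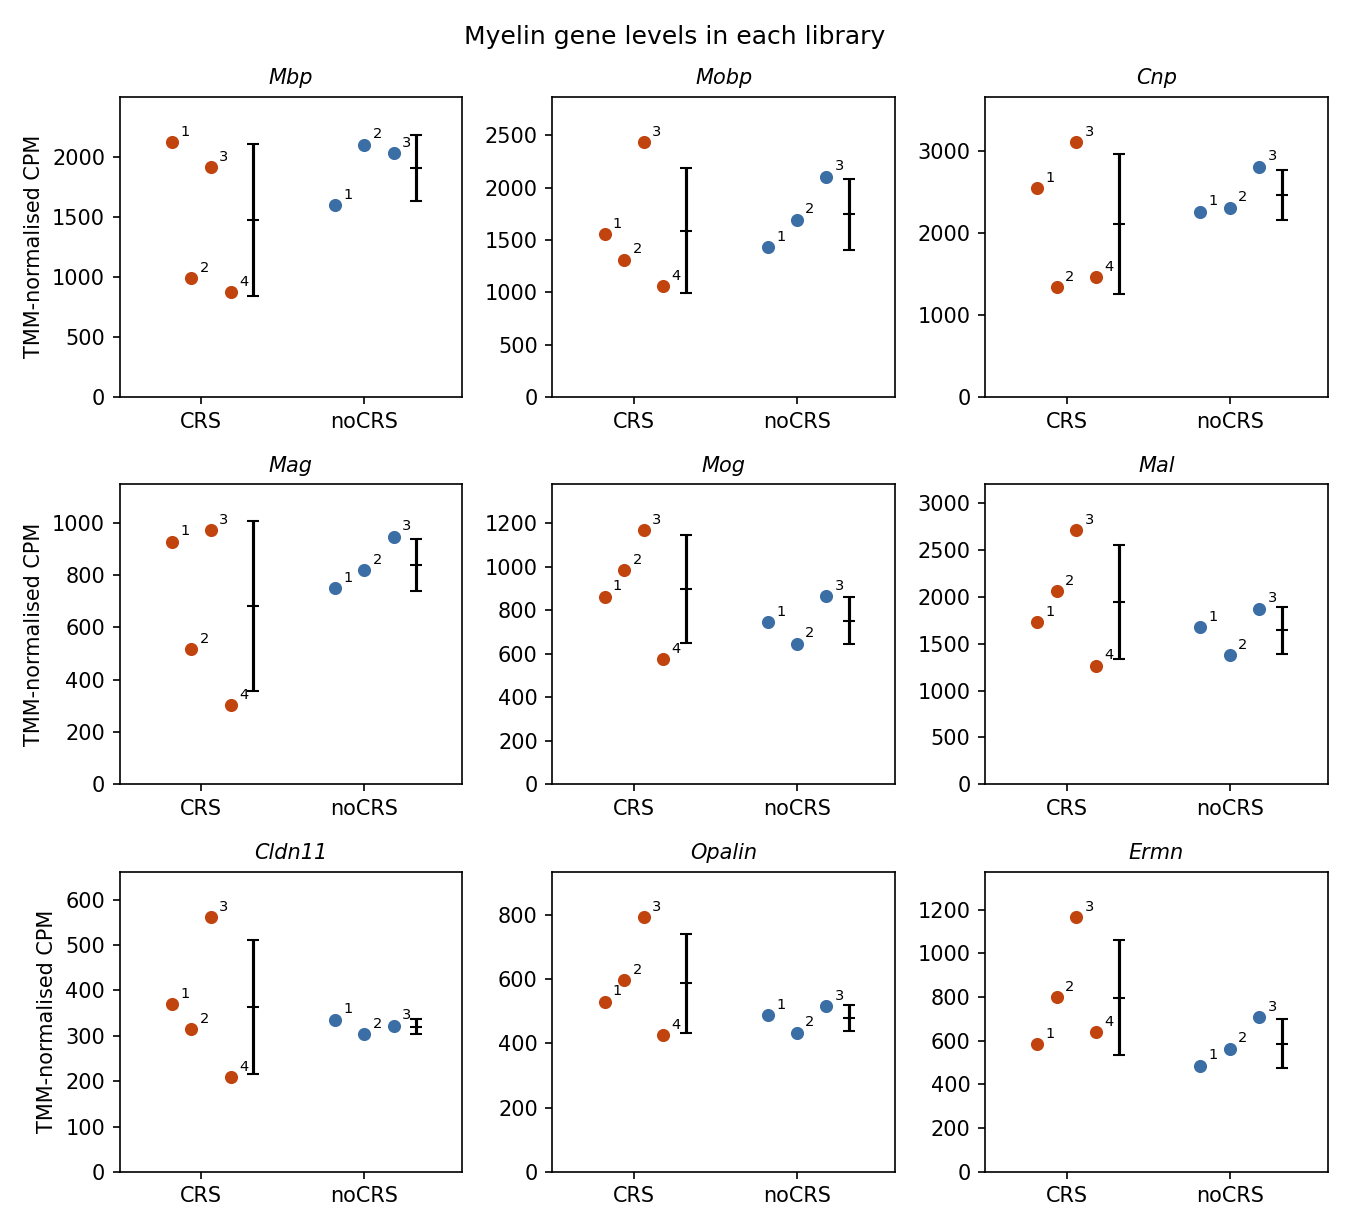
Levels of the 9 myelin genes in each library, in TMM-normalised CPM on linear axes from 0, with CRS libraries in orange and noCRS libraries in blue; digits are replicate numbers and black bars show the mean ± SD (n = 4 and n = 3). CRS replicate 4 was the lowest of the 7 libraries for 7 of 9 genes and CRS replicate 3 the highest for 8 of 9, and the groups overlapped for every gene.

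Of the proteins at the edges of the sheath, Mag (chromosome 7, 30899176 to 30914873, minus strand) encodes an adhesion protein of the innermost layer that faces the axon. It measured 928, 518, 973 and 304 CPM in CRS, against 750, 818 and 947 CPM in noCRS. CRS replicates 2 and 4 lay below all noCRS libraries, and CRS replicate 3 was 3.20-fold above CRS replicate 4, the widest range of the 9 genes. Mag had a log2 fold change of -0.30 (95% interval -1.14 to 0.54, edgeR adjusted p = 0.857).

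Mog (chromosome 17, 37010743 to 37023398, minus strand) encodes an immunoglobulin-family protein of the outermost myelin surface. Its levels were 862, 983, 1169 and 575 CPM in CRS, against 746, 647 and 864 CPM in noCRS. CRS replicates 2 and 3 were above every noCRS library and CRS replicate 4 below them. Mog had a log2 fold change of 0.25 (95% interval -0.29 to 0.80, edgeR adjusted p = 0.791).

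Cnp (chromosome 11, 100574904 to 100591729, plus strand) encodes a cyclic nucleotide phosphodiesterase that keeps the cytoplasmic channels of myelin open. It measured 2543, 1338, 3100 and 1460 CPM in CRS, against 2257, 2305 and 2804 CPM in noCRS. CRS replicates 2 and 4 were below every other library. The log2 fold change was -0.22 (95% interval -0.90 to 0.47, edgeR adjusted p = 0.874). Cnp shares 12.7% of its exon length with Dnajc7 on the other strand, and since the library kit does not mark strand its value is uncertain to that extent.

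Opalin (chromosome 19, 41061710 to 41077113, minus strand) encodes a transmembrane glycoprotein of oligodendrocytes. It measured 530, 598, 793 and 427 CPM in CRS, against 488, 434 and 516 CPM in noCRS. CRS replicates 1, 2 and 3 were above all noCRS libraries and CRS replicate 4 was just below them. The log2 fold change was 0.29, with the narrowest 95% interval of the 9 genes (-0.20 to 0.78, edgeR adjusted p = 0.691).

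Ermn (chromosome 2, 58045113 to 58052864, minus strand) encodes ermin, an actin-binding cytoskeletal protein of late myelination. It measured 585, 801, 1165 and 639 CPM in CRS, against 486, 564 and 710 CPM in noCRS. CRS replicates 2 and 3 were above all noCRS libraries and the other CRS libraries within their range. Ermn had the highest fold change, 1.36-fold (log2 0.44 ± 0.26 SE, 95% interval -0.15 to 1.04, edgeR adjusted p = 0.568). It shares 6.52% of its exon length with Galnt5 on the other strand, and Mobp shares 1.15% with Gm38642 on the same strand.

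**Figure D2:**
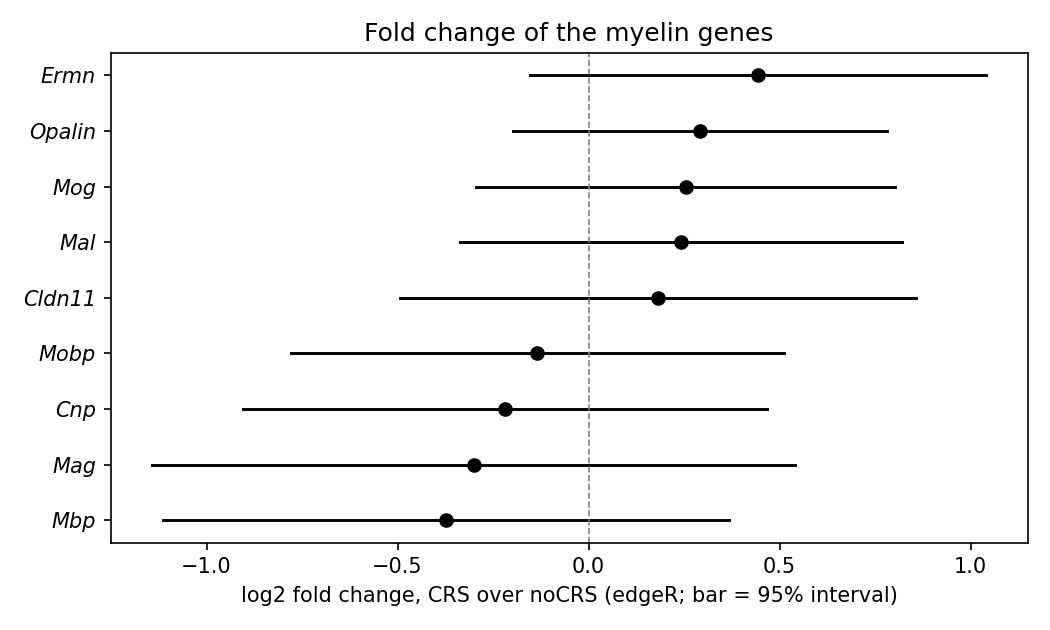
Log2 fold change of CRS over noCRS for each myelin gene (points) with its 95% interval from edgeR (bars); the dashed line marks no difference. All 9 intervals span 0, from Mbp at -0.37 to Ermn at 0.44.

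The 9 genes varied more among the CRS than among the noCRS libraries. Their coefficients of variation were 26.3% to 47.6% in CRS and 5.10% to 19.4% in noCRS, and the CRS value was the higher for 9 of 9 genes. Over the 2074 tested genes with a mean of at least 100 CPM, the median coefficient of variation was 19.0% in CRS and 15.1% in noCRS, and the CRS value was the higher for 63.1%. Since the 9 genes share libraries and move together, this count describes 4 and 3 libraries, not 9 independent cases, and the difference in spread was not tested.

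Across the libraries the genes followed partly a shared and partly a divided pattern. In CRS replicate 3 all 9 were above their own mean over the 7 libraries, by 0.29 for Mbp to 0.77 for Ermn in log2 CPM. In CRS replicate 4 all 9 were below it, by a log2 difference of -0.09 for Ermn to -1.20 for Mag. In CRS replicate 2 the genes divided: Cnp (-0.70), Mbp (-0.67), Mag (-0.44), Mobp (-0.29) and Cldn11 (-0.08) were below their mean, while Mog (0.27), Ermn (0.23), Mal (0.22) and Opalin (0.17) were above. In noCRS replicate 2 the division ran the other way, with Mbp (0.42), Mag (0.22), Cnp (0.09) and Mobp (0.08) above and the other 5 below.

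**Figure D3:**
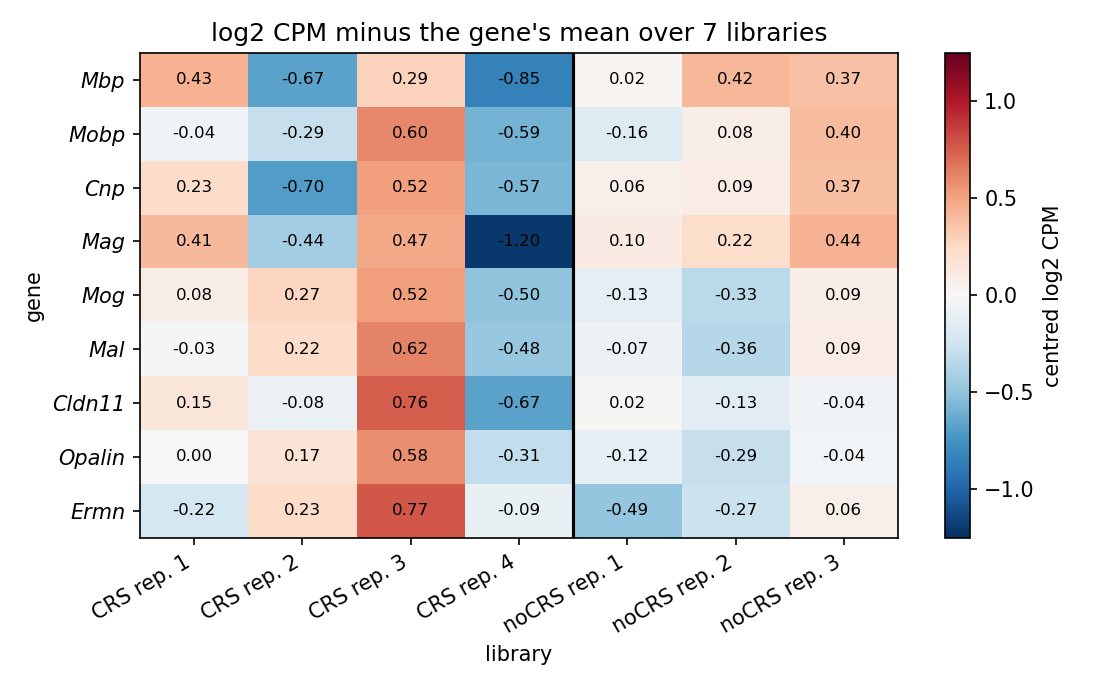
Log2 CPM of each gene (rows) in each library (columns, CRS left of the black line and noCRS right of it), minus that gene's mean over the 7 libraries; red is above and blue below the mean, and each cell prints its value. CRS replicate 3 is above the mean throughout and CRS replicate 4 below, and in CRS replicate 2 Mbp, Mobp, Cnp and Mag are below while Mog, Mal, Opalin and Ermn are above.

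The same division showed in the make-up of the summed myelin counts. Cnp held 22.7%, 15.0%, 20.9% and 21.4% of the 9 genes' counts in CRS replicates 1 to 4, against 23.1%, 22.5% and 23.0% in noCRS. Mbp held 13.9% ± 3.42 in CRS (SD, n = 4) and 17.8% ± 2.32 in noCRS (SD, n = 3), and was highest at 20.5% in noCRS replicate 2. Mal rather than Cnp led in CRS replicate 2, with 23.1%. Ermn held 5.22%, 8.99%, 7.86% and 9.38% in CRS, against 4.98%, 5.51% and 5.83% in noCRS, where only CRS replicate 1 fell within the noCRS range. Mog was the single gene whose share did not overlap, at 7.68% to 11.0% in CRS and 6.31% to 7.64% in noCRS, a gap of less than 0.1 percentage points at its edge. By CPM, 10.1% of all tested genes were higher in CRS without overlap, so 1 of 9 does not set Mog apart. These shares add up to a fixed sum, so a lower share of some genes raises that of others, and they were not tested.

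**Figure D4:**
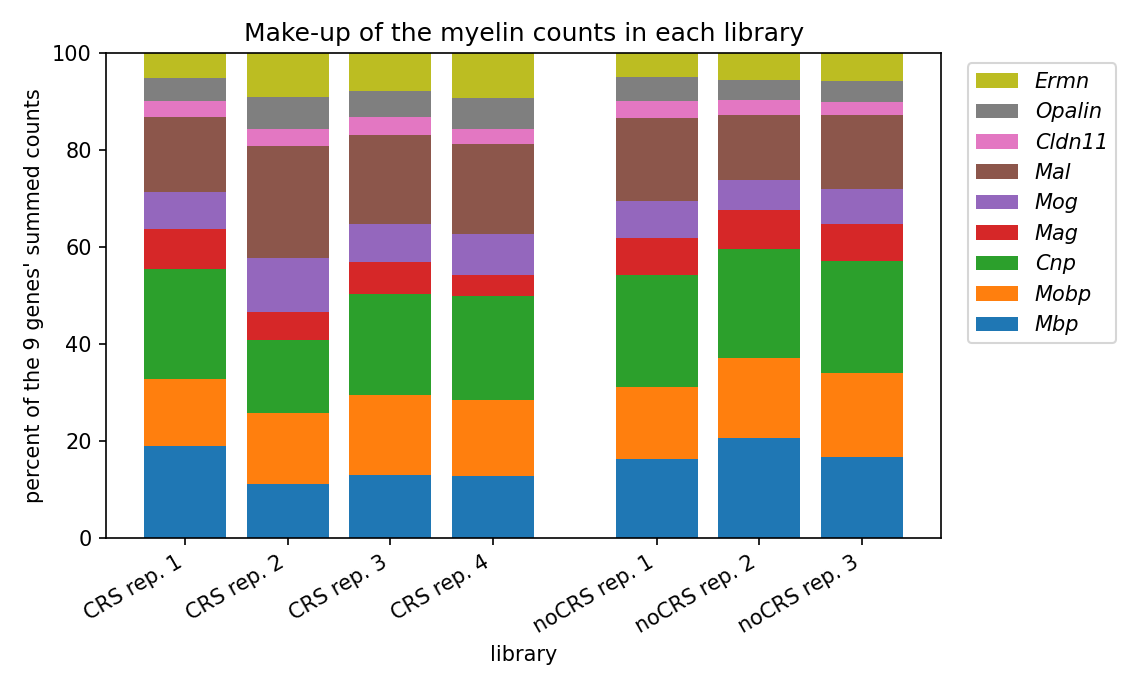
Share of each gene in the 9 genes' summed counts (stacked bars, in percent) for each library, CRS at the left and noCRS at the right. CRS replicate 2 has the smallest shares of Mbp (11.1%) and Cnp (15.0%) and the largest of Mal (23.1%) and Mog (11.0%).

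The signs of the fold changes could be split by gene length among the 9, but with almost no gap. The 5 genes with positive log2 fold changes (0.18 to 0.44) had summed exon lengths of 1704 to 3635 bases, and the 4 with negative ones (-0.37 to -0.13) had 3639 to 8469 bases, a split noticed after the values were seen. At the border lay Ermn (3635 bases), with the highest log2 fold change of 0.44, and Cnp (3639 bases), with -0.22. The signs of Mobp and Cldn11 turned when 1 library was left out. Over all tested genes with a mean of at least 100 CPM, the median log2 fold change was 0.27 for the 313 genes with up to 2000 exonic bases and 0.17 for the 565 genes with over 6000, both positive. In CRS replicate 2 the median deviation from a gene's own mean was 0.29 for the shortest class and 0.098 for the longest, on the log2 scale. In CRS replicate 3 the order was the opposite, at 0.072 for the shortest and 0.165 for the longest. In noCRS replicate 2, where the division of the myelin genes ran the other way, the shortest class was at -0.084 and the longest at -0.118, so the order of these classes was not turned round there. The part of length or RNA quality in the division of the myelin genes was not tested.

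Compared per length, as CPM per kilobase of summed exon, Mal, Cnp and Mog were above the other 6 genes in 7 of 7 libraries. Mal averaged 699 ± 219 in CRS (SD, n = 4) and 591 ± 89.8 in noCRS (SD, n = 3). Cnp averaged 580 ± 235 and 675 ± 83.2 in CRS and noCRS, and Mog 526 ± 146 and 442 ± 64.0. Mal was above Mog in 7 of 7 libraries, so the SD over libraries does not measure the difference between genes. Differences among these 3 genes were not tested. The level per kilobase was highest for Mal in 3 of the CRS libraries, and for Cnp in the remaining CRS library and the 3 noCRS libraries. The group means of the other 6 ran from 167 ± 79.6 (Mag) to 232 ± 87.2 (Mobp) in CRS and from 161 ± 31.2 (Ermn) to 255 ± 49.5 (Mobp) in noCRS. Single libraries could spread them more, as from 74.7 (Mag) to 176 (Ermn) in CRS replicate 4. Summed exon length counts every annotated transcript, so a gene such as Mbp (8469 bases), whose short transcripts use few of them, is set too low on this scale. By this measure the 9 genes ranked between 29 and 855 among 17833 tested genes, with Mal at 29 in CRS replicate 3 and Mag at 855 in CRS replicate 4.

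Other genes of myelin and mature oligodendrocytes did not pass the test either. Of a list of 38, edgeR called 0 (3 at an unadjusted p below 0.05), 16 had positive and 22 negative fold changes, and the median log2 fold change was -0.11. Their summed level was 37908 to 71875 CPM in CRS and 46708 to 50924 CPM in noCRS, with CRS libraries at both ends as for the 9 genes. Trf, the iron carrier transferrin that oligodendrocytes make, measured 4037, 4275, 6040 and 2572 CPM in CRS, against 3677, 3627 and 3738 CPM in noCRS. It shares with the 9 genes its highest library, CRS replicate 3, and its lowest, CRS replicate 4 (edgeR adjusted p = 0.862).

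Some markers of earlier stages of the lineage fell in CRS. Of 20 genes of newly formed oligodendrocytes 4 fell and 0 rose, at a list median of -0.59 (log2 fold change), beside a background of 0.23% of genes called lower. Neu4, a sialidase, measured 161, 87.5, 143 and 131 CPM in CRS, against 385, 336 and 415 CPM in noCRS (edgeR adjusted p = 0.0117). Gpr17, a receptor of cells on the way to differentiation, measured 60.5, 31.0, 59.4 and 38.5 CPM in CRS, against 145, 198 and 92.1 CPM in noCRS (edgeR adjusted p = 0.0472). Itpr2, a calcium release channel, and Lims2, an adaptor of cell adhesion, were the others. In all 4 the groups did not overlap. The Neu4 call was lost without noCRS replicate 3 (edgeR adjusted p = 0.0506), that of Gpr17 without any single library (adjusted p up to 0.180), that of Itpr2 in every leave-one-out fit but that without CRS replicate 2 (up to 0.136) and that of Lims2 without CRS replicate 1 or 3 or noCRS replicate 2 or 3 (up to 0.0902). The summed level of this list was 1726 to 2473 CPM in CRS and 3056 to 3501 CPM in noCRS. Its most abundant members, Sirt2 (900 ± 239 CPM in CRS, 1166 ± 97.1 CPM in noCRS) and the kinase Fyn (220 ± 36.0 CPM in CRS, 326 ± 42.8 CPM in noCRS), did not pass (SD, n = 4 and n = 3).

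Of 18 precursor genes 6 fell and 0 rose, at a list median of -0.92 (log2 fold change), and for 14 of them every CRS library was below every noCRS library, against 6.74% of tested genes. The 4 of smallest p were C1ql1, Sox8, Sox10 and Matn4. Because SOX10 also drives myelin genes, as stated above, this list is not limited to genes of precursors. The list summed to 2879 to 3986 CPM in CRS and 5583 to 5943 CPM in noCRS. Pdgfra, the growth factor receptor that marks precursors and the most abundant of the list, measured 764 ± 219 CPM in CRS (SD, n = 4) and 911 ± 236 CPM in noCRS (SD, n = 3), with overlap. The list counts depended on the libraries: without a single library they were 0 to 3 for newly formed (0 without noCRS replicate 3; 1 without CRS replicate 1, CRS replicate 3 or noCRS replicate 2; 2 without CRS replicate 4 or noCRS replicate 1) and 1 to 9 for precursor genes (1 without noCRS replicate 2 or 3, 2 without CRS replicate 3 or 4 or noCRS replicate 1, 3 without CRS replicate 1). Whether the fold changes of these lists differ from those of the 9 myelin genes was not tested.

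**Figure D5:**
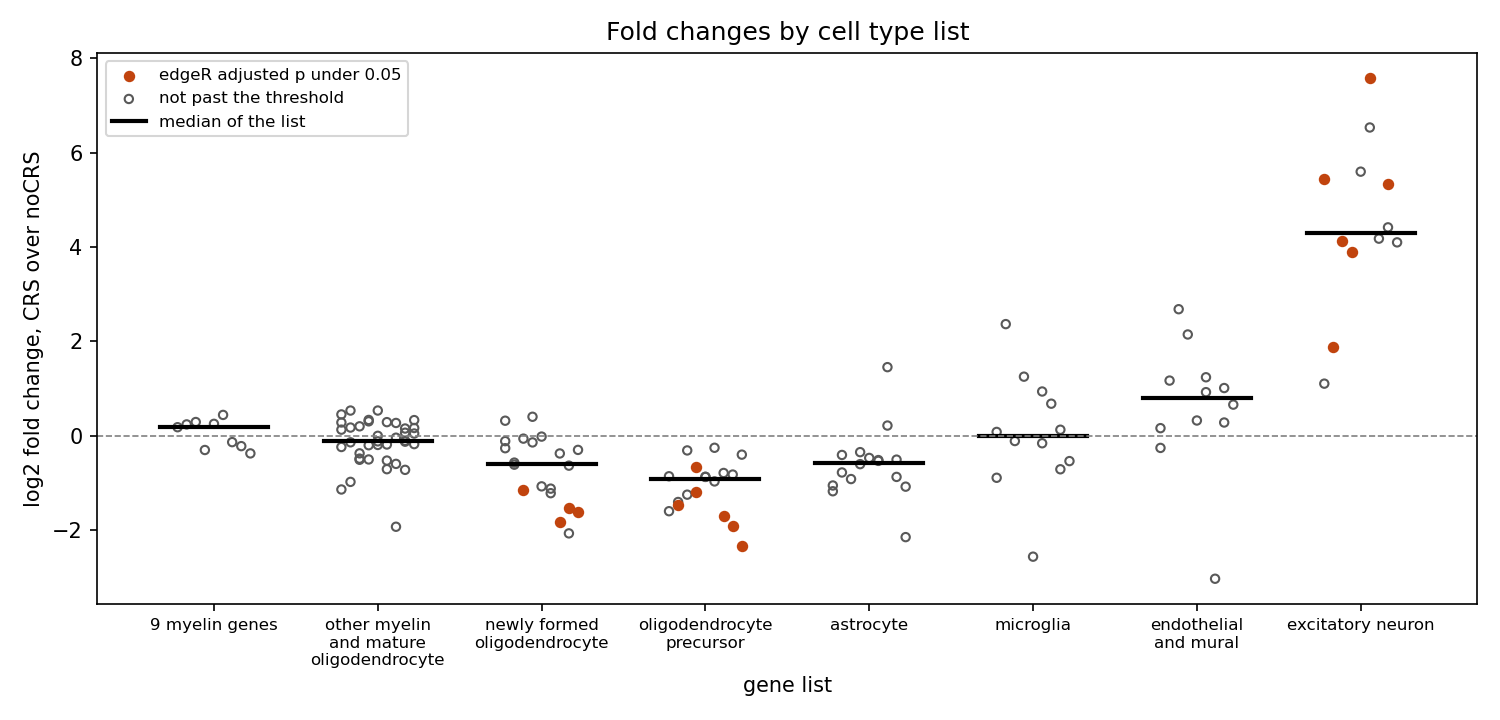
Log2 fold change of CRS over noCRS for every tested gene of 8 lists; filled orange points passed edgeR's adjusted p of 0.05, open points did not, and black lines are list medians. The 9 myelin genes have a median of 0.18 with 0 called, the precursor list -0.92 with 6 lower, and the excitatory neuron list 4.30 with 6 higher.

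Markers of other cells were measured beside these values. Of 16 astrocyte genes edgeR called 0 (5 at an unadjusted p below 0.05), at a list median of -0.57 (log2 fold change) and a summed level of 7827 to 16393 CPM in CRS and 13450 to 17909 CPM in noCRS. Within CRS, astrocyte markers were highest in replicate 4 (16393 CPM) and lowest in replicate 3 (7827 CPM), where the 9 myelin genes were lowest and highest. Replicate 1 was above replicate 2 for both, at 9512 against 8154 CPM for astrocyte markers and 11217 against 8909 CPM for the 9 genes. Microglial genes summed to 102 to 136 CPM in CRS and 94.9 to 135 CPM in noCRS, and 0 of 12 tested were called (0 at an unadjusted p below 0.05). Endothelial and mural genes summed to 188 to 748 CPM in CRS and 119 to 346 CPM in noCRS, with 0 of 12 called (1 at an unadjusted p below 0.05). The peripheral myelin list had 0 of 5 tested members called (1 at an unadjusted p below 0.05), and summed to 338 to 577 CPM in CRS and 162 to 255 CPM in noCRS without overlap. Its most abundant member was Egr2, a factor of Schwann cells that neurons also induce with activity, at 275 ± 99.8 CPM in CRS (SD, n = 4) and 4.75 ± 4.11 CPM in noCRS (SD, n = 3). The whole list averaged 439 CPM in CRS and 209 CPM in noCRS, so its higher sum in CRS came from Egr2. Of the 5 tested members 4 had negative fold changes. The groups of Egr2 did not overlap, and it was short of the threshold (log2 fold change 5.87, edgeR adjusted p = 0.0537). Pmp22, a membrane protein of peripheral myelin, measured 123 ± 12.4 CPM in CRS (SD, n = 4) and 137 ± 36.2 CPM in noCRS (SD, n = 3), with overlap. The part of these cell types in the levels of the myelin genes was not tested.

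The genes whose pattern over the 7 libraries was most like that of the 9 were found by the mean absolute difference of centred log2 CPM, among 10803 candidates with a mean of at least 5 CPM. The closest 10, from the nearest at 0.0996 to the farthest at 0.134, were Wipi2, Trf, Clec16a, Hmg20b, Tbc1d15, Atp1b3, Cers2, Slc12a2, Ube2d1 and Tspan2. Trf, Cers2, a ceramide synthase, and Tspan2, a tetraspanin of oligodendrocytes, belong to the list of other myelin genes. Of that list 9 of 38 candidates were among the closest 100, which are 0.926% of all candidates, and 1 of 19 newly formed oligodendrocyte genes was (Bcas1, named after its values were seen). Of 18 precursor, 16 astrocyte, 2 microglial and 11 excitatory neuron candidates 0 were. The same held for 10 endothelial and mural and 4 peripheral myelin candidates. At 0.926% such short lists would mostly hold 0, so these counts do not set them apart from all candidates. By the same measure the 9 genes themselves differed from their shared pattern by 0.110 (Mobp) to 0.309 (Mbp).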

How the data were processed

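RNA-seq libraries (4 CRS, 3 noCRS) were grouped by the sample labels. The authors deposited raw counts per gene, as whole numbers, with exon coordinates and summed exon length. Per the submitters' processing notes, the tools were featureCounts, HISAT, HISAT2, DESeq2 and FastQC, on build GRCm38. Column names resemble the output names of a different aligner, and how multiply aligned or shared reads were handled was not given. Depth was 28677703 to 39965667 counts, and 3 counts in 1 library corresponded to 0.0751 to 0.105 CPM.

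Counts were tested with edgeR 4.0.16 (R 4.3.3; default filter, TMM factors, no covariate, quasi-likelihood test of CRS over noCRS), adjusted by Benjamini-Hochberg over all tested genes. A standard error is the log2 fold change divided by the root of F. Centred log2 CPM used a prior count of 2. Only the edgeR fit was tested on simulated counts. Their spread was the same for every gene and below the common value fitted here (biological coefficient of variation 0.919). That check therefore does not cover the spread of these libraries, and the other steps were not simulated. No 2 of the 7 libraries were duplicates (chi-square per gene at least 80.2). Members, lists and tests were chosen with earlier results of these data known. Named genes were the members, up to 4 called and the 2 most abundant genes of each list, and the 10 most alike; results of some are not reported here, and sums and counts include them. Alternatives were DESeq2 1.42.0, limma-voom (limma 3.58.1), other scalings and filters, removal of mitochondrial and rRNA genes, a threshold of 0.1, each library left out, and the replicate number as a block.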

Additional observations from a re-analysis of the deposited data

Results flagged for a closer look

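Among the 4 CRS libraries, 52 values were examined for a library far from the other 3, and 1 stood out; chance gives about 1 in 20. It is not a myelin gene. Itpr2 measured 16.7 CPM in CRS replicate 2, below the 45.2 to 50.5 CPM of the other CRS libraries.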

How the results depend on the processing

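The count of myelin genes called was 0 under every alternative run. The number of all genes called was 410, against 1626 with DESeq2, 639 with limma-voom, 714 at an adjusted p of 0.1, 12 with the replicate block, and 142 (without noCRS replicate 2) to 352 (without CRS replicate 2) when 1 library was left out; other scalings and filters gave 312 to 449. The log2 ratio of the summed share was -0.40 to -0.045 without 1 library and -0.039 on the TMM scale. Signs of single genes turned only without 1 library: Mobp ran from -0.43 (without CRS replicate 3) to 0.026 (without noCRS replicate 3) and Cldn11 from -0.13 (without CRS replicate 3) to 0.35 (without CRS replicate 4). Scaling by library totals moved the median of all genes to -0.17; the 9 genes kept their signs. DESeq2 called 13 precursor genes lower and limma-voom 13, against 6 by edgeR (12 at an adjusted p of 0.1), and DESeq2 called 10 excitatory neuron genes higher, against 6. With the replicate block 0 precursor, 0 newly formed and 1 excitatory neuron gene were called. Whether same-numbered libraries were paired is not given. Their deviations from the group means correlated at 0.0153, -0.00319 and 0.0228, against -0.0645 to 0.0503 for libraries of different number. Such deviations cancel out within each small group, so these values cannot settle whether libraries were paired. Each myelin gene had at least 7998 counts in every library.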
